A study of Mus musculus with 6 samples.

Results

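Protamines, transition proteins and testis histones are proteins that package DNA in the male germ line. A group of 10 genes built around them was followed here in whole testes of mice that over-express aromatase. The genes are the testis histones Hist1h2ba, Hist1h1t, H1fnt and Hils1, the histone reader Brdt and the transition proteins Tnp1 and Tnp2. The others are the protamines Prm1 and Prm2, and Prm3, the acidic member of the protamine cluster. All non-control probes that carry one of these names in the array files were taken, which gave 12 probes for the 10 genes, out of 55681 probes and 34844 names on the array. Brdt and Prm3 had 2 probes each and the others 1. All 12 probes were well above background on all 6 arrays, none had an outlier flag and none was saturated.

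The AROM+ group consisted of 3 transgenic male mice with aromatase over-expression, and the WT group of 3 wild-type males. Both groups were 5 months old on a C57BL/6 background, and each array held the RNA of 1 single whole testis labelled with Cy3. The comparison asks which transcripts differ between the 2 genotypes. The promoter that drives the transgene, the species of its coding sequence and the number of founder lines are not given in the sources used here.

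Nucleosomes are dismantled while round spermatids turn into sperm. Testis variants first replace ordinary histones in spermatocytes and spermatids, transition proteins then take the place of most histones, and protamines, small arginine-rich proteins, finally replace the transition proteins and compact the nucleus. Transcription stops during this exchange, so the messenger RNAs of transition proteins and protamines are made in round spermatids and stored before they are translated. In mice, loss of Prm1 or Prm2, of Brdt or of both transition proteins disturbs sperm nuclei and fertility.

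A pair of probes is shown because the array reads each gene through 60 bases only. The Hist1h2ba probe lies in the conserved body of an H2B histone, where related H2B genes are similar, so signal from other H2B messages cannot be told apart from its own. The Prm3 probe reads a run of codons for acidic residues, and Prm3 is the acidic member of the protamine cluster. Positions are those of the array files (NCBI37/mm9), at chr13:24025811-24025870 for Hist1h2ba and chr16:10790822-10790881 for Prm3, both on the minus strand. The sequences are written 5′ to 3′ along the messenger RNA.
Hist1h2ba probe: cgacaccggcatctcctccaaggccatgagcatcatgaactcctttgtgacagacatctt
Prm3 probe: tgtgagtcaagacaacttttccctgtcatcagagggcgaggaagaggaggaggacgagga

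The 250 bases before the annotated start were read from RefSeq (GRCm38.p6) for all 10 genes, because genes of this kind are known targets of CREM, a spermatid transcription factor that binds the cAMP response element. The palindrome TGANNTCA, which includes the full element TGACGTCA and reads the same on both strands, was found in 3 of the 10 promoters and in 12% of all 27025 promoters. TGACGTCA itself was in 0 of the 10 and in 1.62% of all promoters. TATAAA or TATATA, on either strand and with overlaps between them allowed, was in 4 of the 10 (Prm2, Tnp2, Hist1h1t and Hist1h2ba) and in 16.4% of all. A match is a description of these letters and not evidence of binding. The 3 promoters with the palindrome are printed with its 8 bases in capitals, and it began 64 bases before the start in Prm1, 94 in Tnp1 and 60 in Prm3. They lie at chr16:10796824-10797073 (Prm1), chr1:73015900-73016149 (Tnp1) and chr16:10790915-10791164 (Prm3), all on the minus strand.
Prm1 promoter: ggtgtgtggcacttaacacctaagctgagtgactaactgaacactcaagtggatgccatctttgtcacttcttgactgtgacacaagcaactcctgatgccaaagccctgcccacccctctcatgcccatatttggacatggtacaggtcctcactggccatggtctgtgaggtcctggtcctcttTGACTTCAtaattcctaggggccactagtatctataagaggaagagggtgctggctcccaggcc
Tnp1 promoter: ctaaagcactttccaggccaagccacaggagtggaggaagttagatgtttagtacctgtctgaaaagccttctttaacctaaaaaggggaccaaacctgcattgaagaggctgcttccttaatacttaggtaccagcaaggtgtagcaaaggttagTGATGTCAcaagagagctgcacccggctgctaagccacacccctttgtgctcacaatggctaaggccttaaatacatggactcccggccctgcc
Prm3 promoter: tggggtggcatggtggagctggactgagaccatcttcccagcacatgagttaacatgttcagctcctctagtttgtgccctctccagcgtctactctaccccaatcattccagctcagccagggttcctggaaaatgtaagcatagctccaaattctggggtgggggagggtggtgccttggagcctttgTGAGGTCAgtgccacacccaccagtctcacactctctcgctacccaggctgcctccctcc

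Between 76.6% and 80.6% of spots per array were well above background, and the number of arrays limits the precision. Arrays of one group correlated across genes at r = 0.986 to 0.991 within AROM+ and 0.994 to 0.996 within WT, against 0.949 to 0.979 between the groups, and genes are not independent replicates. All 6 arrays lay on 1 slide, with AROM+ in one row and WT in the other, so slide position and genotype cannot be told apart. The probe of Cyp19a1, the mouse aromatase gene, read −3.31, −2.99 and −3.34 in AROM+ and −2.77, −3.28 and −2.69 in WT (log2 intensity minus the array's 75th percentile), with no call (limma, adjusted p = 0.208). It may not detect the transgene and so does not check the genotype labels. In whole testes, fewer cells of a type and less RNA per cell cannot be told apart.

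All 10 genes read lower on average in AROM+ than in WT testes, and 6 of them passed the test: Brdt, Hist1h1t, Hist1h2ba, H1fnt, Prm3 and Tnp2. None was higher, and Prm1, Prm2, Tnp1 and Hils1 were not called. The threshold was a limma adjusted p of 0.05 over 18845 genes. Over all of these genes 32.6% were called lower and 19.9% higher, so a call in the lower direction was common on these arrays. The 10 genes had a median difference of −0.35 (log2, AROM+ minus WT), against −0.14 over all genes tested, which places them at −0.20 relative to that median. A difference below 0 was seen in 60.6% of all genes, and the 10 all lay below the median of all genes. The values of all 3 AROM+ testes lay below those of all 3 WT testes for 8 of the 10, which held for 40.2% of all genes. Levels below are log2 intensities minus the array's 75th percentile, in the order of replicates 1, 2 and 3, and differences carry the standard error (SE) of the fit over 3 arrays per group.

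**Figure D1:**
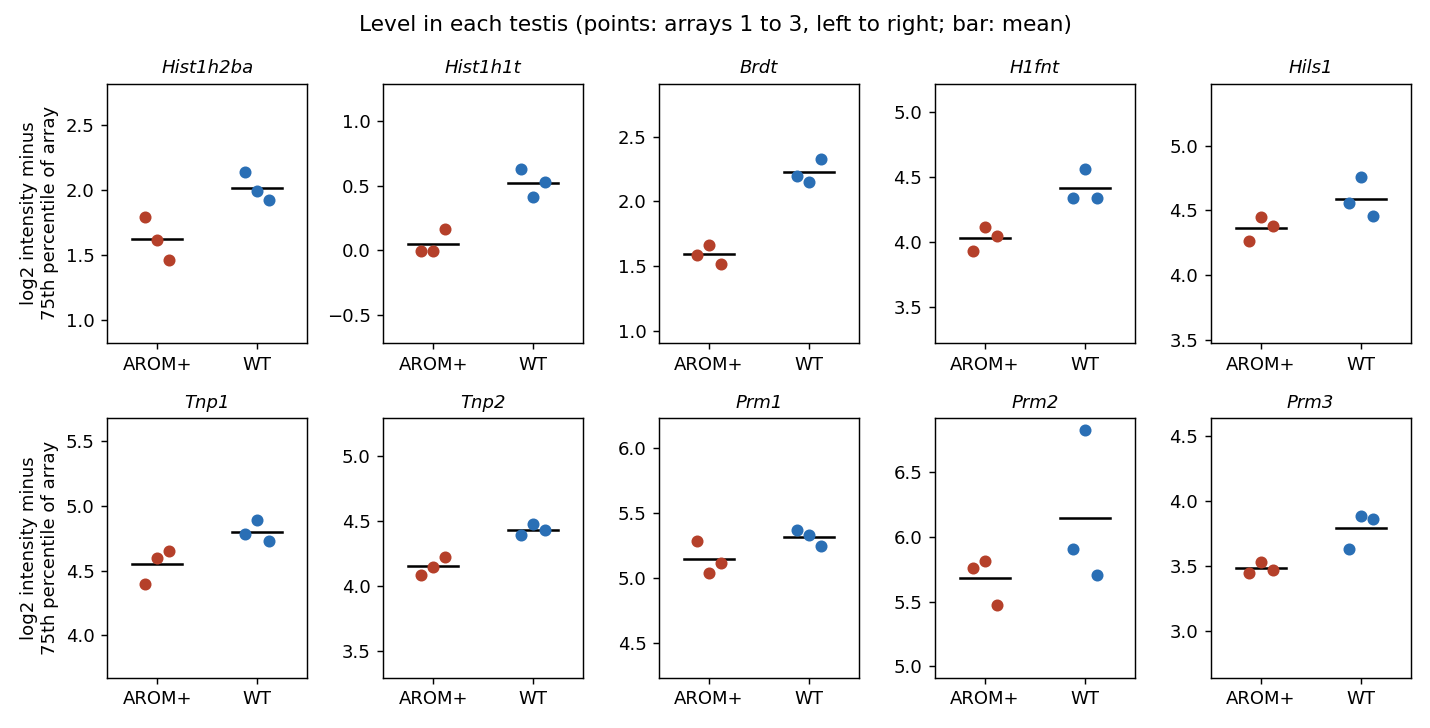
Levels of the 10 genes (vertical axis, log2 intensity minus the 75th percentile of the array) in the 3 AROM+ and 3 WT testes, each point 1 array in the order of replicates 1 to 3 and each bar a group mean. Each panel has its own range of 2 log2 units. The groups do not overlap except for Prm1 and Prm2, where WT replicate 2 stands at 6.83 for Prm2.

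Hist1h2ba, the testis form of histone H2B that enters chromatin before and during meiosis, was lower in AROM+ testes. Its levels were 1.79, 1.62 and 1.46 in AROM+, against 2.14, 1.99 and 1.92 in WT. The highest AROM+ value lay below the lowest WT value. The difference was −0.39 ± 0.12 (limma, adjusted p = 0.0277). The call held in 14 of the 21 alternatives. It was lost in 5 of the 6 fits that left out an array (adjusted p 0.0515 to 0.0962), all but that without AROM+ replicate 1, and with quantile (adjusted p = 0.156) and spike-in scaling (0.106).

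Hist1h1t, the linker histone of pachytene spermatocytes, was lower by a similar amount. It read −0.01, −0.01 and 0.17 in AROM+ testes and 0.62, 0.41 and 0.53 in WT testes. The groups were separated and the spread within each was small, with an SD of 0.10 in AROM+ and 0.11 in WT (n = 3 each). The difference of −0.47 ± 0.10 passed (limma, adjusted p = 0.00951), and the mean signal fell by 27.7%. It passed under all 21 alternative settings.

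H1fnt, a linker histone of spermatids needed for nuclear condensation in mice, had levels of 3.93, 4.12 and 4.05 in AROM+ and 4.34, 4.56 and 4.34 in WT. Every AROM+ testis lay below every WT testis. It was called lower by −0.38 ± 0.10 (limma, adjusted p = 0.0200), and in 18 of the 21 alternatives. The call was lost without AROM+ replicate 1 (adjusted p = 0.0539) and with quantile (0.210) and spike-in scaling (0.0539). Hils1, a linker-like histone of elongating spermatids, read 4.26, 4.45 and 4.38 in AROM+ and 4.56, 4.76 and 4.46 in WT. Its groups did not overlap, yet AROM+ replicate 2 came within 0.01 of WT replicate 3. The difference of −0.23 ± 0.11 was not called (limma, adjusted p = 0.121, 95% interval −0.49 to 0.03).

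Brdt, a testis bromodomain protein that binds acetylated histones and is needed in mice for their removal, showed the most negative difference of the 10. Its brighter probe, designed to transcript variant 2 (NM_001079873), lies at chr5:107779688-107779747 (NCBI37/mm9). It read 1.59, 1.67 and 1.52 in AROM+ testes, against 2.20, 2.15 and 2.32 in WT testes. The groups stood well apart. The difference was −0.63 ± 0.09 (limma, adjusted p = 0.00372), and the mean signal fell by 35.6%. The call held under all 21 alternatives.

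The dimmer Brdt probe, designed to variant 1 (NM_054054), lies at chr5:107815297-107815356 in the same build. Its levels were 0.39, 0.68 and 0.50 in AROM+ and 0.85, 0.71 and 0.99 in WT. They did not overlap either, but AROM+ replicate 2 and WT replicate 2 were close. With every probe fitted on its own, where 30.3% of probes were called lower, this probe differed by −0.33 ± 0.12 and was not called (limma, adjusted p = 0.0625), whereas the brighter probe was (adjusted p = 0.00547). The gap between the probes on the same array was 1.20, 0.99 and 1.02 in AROM+ and 1.35, 1.44 and 1.33 in WT. This gap was smaller in all 3 AROM+ testes, by −0.30 on average, at the smallest p that 3 against 3 arrays allow (two-sided exact permutation test, p = 0.1).

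Tnp1 and Tnp2 encode the transition proteins that occupy DNA between histone removal and protamine loading. Tnp1 levels were 4.40, 4.60 and 4.65 in AROM+ and 4.78, 4.89 and 4.73 in WT. The groups did not overlap, with AROM+ replicate 3 just under WT replicate 3. The difference of −0.25 ± 0.10 missed the threshold (limma, adjusted p = 0.0747, 95% interval −0.49 to −0.01 before adjustment).

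Tnp2 read 4.08, 4.14 and 4.22 in AROM+ testes and 4.39, 4.48 and 4.43 in WT testes. The 3 WT values were close together, with an SD of 0.04, and all AROM+ values lay beneath them. Tnp2 was called lower by −0.28 ± 0.08 (limma, adjusted p = 0.0259). This held in 12 of the 21 alternatives and, of the 6 fits that left out an array, only in that without AROM+ replicate 3 (adjusted p 0.0637 to 0.0750 in the other 5). It was lost with quantile (adjusted p = 0.591) and spike-in scaling (0.0820). The scanner software did not find the Tnp2 spot of WT replicate 2 and read a nominal position. With such spots left out, a setting chosen after seeing the data in which 30.9% of all genes were called lower, Tnp2 was not called (limma, adjusted p = 0.0671).

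Prm1, a protamine of mammalian sperm, was not called. Its levels were 5.29, 5.04 and 5.12 in AROM+ and 5.37, 5.33 and 5.25 in WT. AROM+ replicate 1 lay above WT replicate 3, so the groups overlapped. The difference was −0.17 ± 0.10 (limma, adjusted p = 0.180), with a 95% interval of −0.40 to 0.06, close to the −0.14 of the median gene. The Prm1 spot of AROM+ replicate 3 was among those the scanner software did not find.

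Prm2, the other main mouse protamine, is made as a precursor that is cleaved during condensation. It read 5.76, 5.81 and 5.48 in AROM+ and 5.91, 6.83 and 5.70 in WT. WT replicate 2 stood far above the other 5 arrays, and the groups overlapped through WT replicate 3. The difference of −0.46 ± 0.29 (limma, adjusted p = 0.212, 95% interval −1.15 to 0.23) had the widest interval of the 10. Without WT replicate 2 it was −0.12 (adjusted p = 0.493). The spot of WT replicate 1 was not found by the scanner software, and with it left out the difference was −0.58.

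Prm3, whose acidic protein has been located in the cytoplasm of mouse spermatids, was lower in AROM+. The brighter of its probes read 3.45, 3.53 and 3.47 in AROM+, against 3.63, 3.89 and 3.86 in WT. The AROM+ values were close together and all lay below WT. The difference was −0.31 ± 0.10 (limma, adjusted p = 0.0362). The call held in 11 of the 21 alternatives and in 1 of the 6 fits that left out an array, that without WT replicate 1 (adjusted p 0.0628 to 0.114 in the other 5). It was lost with quantile (adjusted p = 0.457) and spike-in scaling (0.0885), with the deposited table (0.0514) and with array weights (0.126). Fitted probe by probe, both Prm3 probes were called, at −0.31 (adjusted p = 0.0480) and −0.37 (adjusted p = 0.0370). The gap between them on each array differed by 0.06 between the groups (two-sided exact permutation test, p = 0.5).

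**Figure D2:**
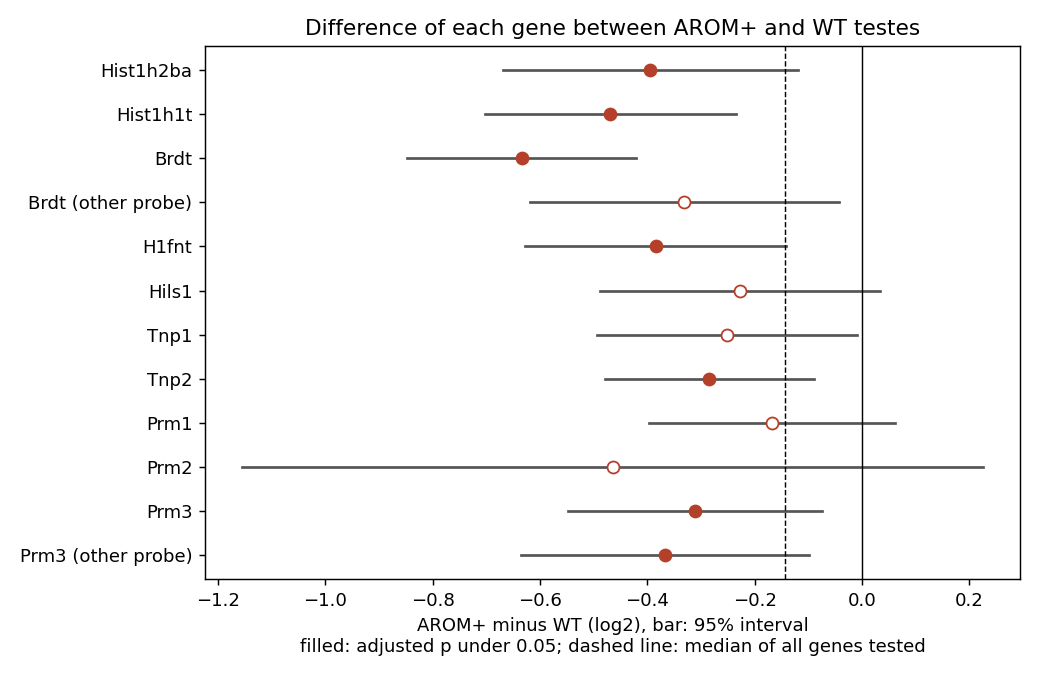
Difference of each of the 10 genes (horizontal axis, log2, AROM+ minus WT) with its 95% interval from limma, filled where the adjusted p was under 0.05. The other probes of Brdt and Prm3 have rows of their own, with interval and call from the fit of every probe on its own. The dashed line is the median of all genes tested at −0.14. Brdt at −0.63 lies farthest to the left and Prm1 at −0.17 nearest to the line.

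The testes of a group did not rank alike across the 10 genes. AROM+ replicate 1 was the lowest of its group for 6 genes and AROM+ replicate 2 the highest for 5. Among WT testes, replicate 2 was the highest for 6 and replicate 3 the lowest for 5. The array's median over the 10 genes, relative to each gene's WT mean, was −0.37, −0.30 and −0.34 in AROM+, against −0.03, 0.07 and −0.07 in WT.

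The share of calls depended on how the arrays were put on one scale. On average the 75th percentile was itself higher in AROM+ than in WT arrays by 0.18 (log2), and the spike-in controls by 0.24. The 75th percentiles of the groups overlapped (12.06 to 12.41 in AROM+ and 11.85 to 12.13 in WT). Before any scaling 9 of the 10 genes were lower in AROM+ on average and Prm1 was higher by 0.01, and the groups were separate only for Brdt and H1fnt. With the spike-in controls as the scale, Hist1h1t and Brdt were the 2 genes called, while 22.6% of all genes were called lower. Quantile normalization also left Hist1h1t and Brdt, against 21.3% of all genes called lower, and turned the signs of Prm1 (0.06, adjusted p = 0.75) and Hils1 (0.01, adjusted p = 0.888). Centring on the median of the genes tested called 9 of the 10 lower, against 41.5% of all genes, with Prm2 the exception. Of the 10 genes, 4 were called lower without WT replicate 1 (20.9% of all genes) and 4 without AROM+ replicate 3 (27.7%). Leaving out WT replicate 2 gave 3 calls (28.9%), as did WT replicate 3 (20.2%). Leaving out AROM+ replicate 1 (25%) or its replicate 2 (28.2%) also gave 3. Hist1h1t and Brdt were called in each of these fits.

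**Figure D3:**
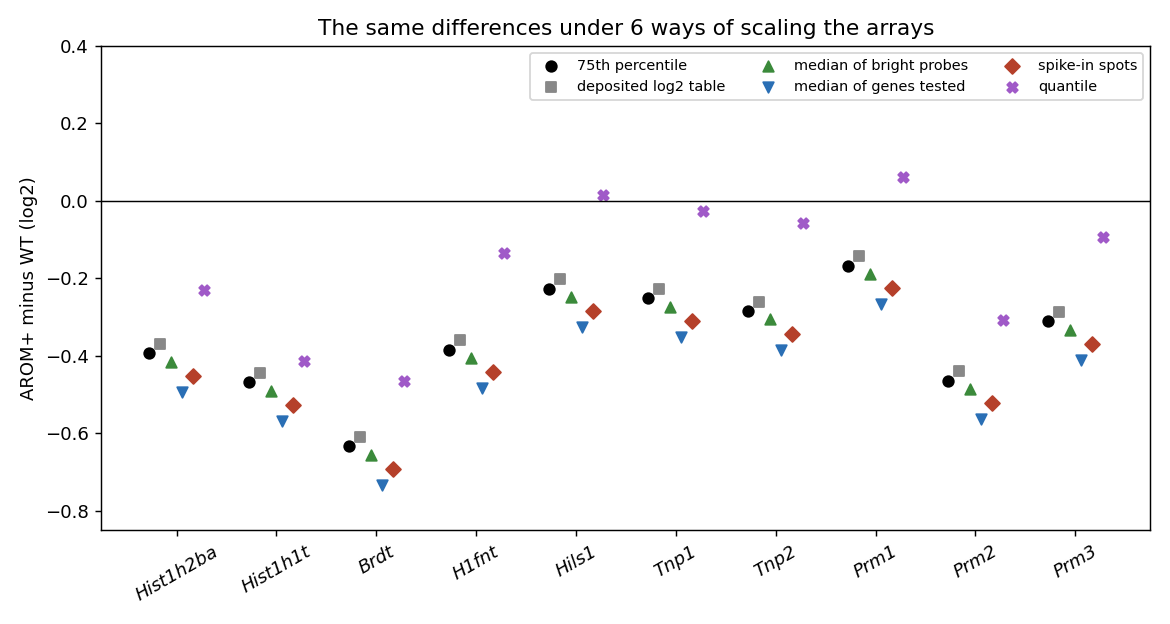
Difference of each of the 10 genes (vertical axis, log2, AROM+ minus WT) under 6 ways of scaling the arrays, 1 symbol per scaling. The symbols of Prm1 and Hils1 pass 0 with quantile normalization, and those of all the other genes, Hist1h1t and Brdt among them, stay below 0 throughout.

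Prm1, Prm2, Prm3 and Tnp2 are neighbours on chromosome 16. Their probes lie within 8481 bases, at chr16:10788029-10796509 (NCBI37/mm9), all on the minus strand. Within this cluster, Prm3 and Tnp2 were called lower and Prm1 and Prm2 were not. The nearest protein-coding neighbours in RefSeq were Dexi, Clec16a and Socs1 on one side and Rmi2, Litaf and Snn on the other. They did not share one direction. Clec16a, linked to mitophagy, was lower by −0.42 ± 0.08 (limma, adjusted p = 0.00635), and Litaf, an endosomal protein known from macrophages, was higher by 1.13 ± 0.15 (adjusted p = 0.00345). The other 4 lay between −0.11 and 0.14 and were not called.

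Other linker and variant histones, a list of mostly general histones with some germ-line variants, gave few calls. Hist1h1d and H2afb3 were not tested, nor was H2afb1, a name shared by 2 RefSeq genes. Of the 18 tested, 2 were higher (11.1%, against 19.9% of all genes) and 3 lower (16.7%, against 32.6%). The median was −0.15 beside −0.14 over all genes. Hist1h1c, a linker histone of the main histone gene cluster found in many somatic cells, was higher by 1.11 ± 0.22 (limma, adjusted p = 0.00868). Cenpa, the centromeric H3 variant, was higher by 0.40 ± 0.12 (adjusted p = 0.0308). H2afb2, a short H2A variant of spermatids, was lower by −0.63 ± 0.17 (adjusted p = 0.0223), and H1fx by −0.39 ± 0.13 (adjusted p = 0.0381). The remaining lower gene was Hist1h1b, named after its values were seen. The Cenpa, H2afb2 and H1fx calls were each lost without WT replicate 1, and none of the list was then called lower. None was called lower without WT replicate 2 or AROM+ replicate 2 either, and 1 was without AROM+ replicate 1. The Cenpa, H2afb2 and H1fx calls were also each lost with the replicate block (limma, adjusted p 0.0640 to 0.0806). That of H1fx was lost with quantile (adjusted p = 0.0571) and spike-in scaling (0.0610) too. That of Cenpa was lost with spike-in scaling (adjusted p = 0.0999) and centring on the gene median (0.0697).

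Of the 33 tested factors of histone modification and removal, 14 were lower (42.4%, against 32.6% of all genes) and 4 higher (12.1%, against 19.9%). Their median was −0.21. Psme4, the proteasome activator that degrades acetylated histones in spermatids, was lower by −0.62 ± 0.09 (limma, adjusted p = 0.00420). Epc1, a subunit of the NuA4 histone acetyltransferase complex, was lower by −0.61 ± 0.10 (adjusted p = 0.00460). Brd3, a bromodomain relative of Brdt, was lower by −0.76 ± 0.12 (adjusted p = 0.00503), but the mean of its probes was −0.23 and was not called (adjusted p = 0.0508). Srpk1, a kinase that phosphorylates protamine 1, was lower by −0.66 ± 0.22 (adjusted p = 0.0424). The mean of its probes was −0.30 and was not called (adjusted p = 0.123). Its call was also lost when any 1 WT array was left out. The same held with quantile normalization (adjusted p = 0.115), the deposited table (0.0505), no filter on dim probes (0.0586) and the replicate block (0.0514). Top2b, Cdyl, Ubr2 and Huwe1 were the 4 higher genes, named after their values were seen. Ing2 was not tested. The lower count was 9 without WT replicate 2, 8 without WT replicate 3, 9 without AROM+ replicate 1 and 5 with quantile normalization, when 28.9%, 20.2%, 25% and 21.3% of all genes were lower. The list's share was then near or below that of all genes.

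Regulators of spermatid transcription and of stored messenger RNA were lower in 15 of 23 cases (65.2%, against 32.6% of all genes) and higher in none, with a median of −0.33. Rfx2, a transcription factor of spermatid maturation in mice, was lower by −0.65 ± 0.08 (limma, adjusted p = 0.00301). Papolb, the testis poly(A) polymerase, was lower by −0.65 ± 0.10 (adjusted p = 0.00440). Kif17, the kinesin that carries the CREM coactivator ACT, was lower by −0.64 ± 0.08 (adjusted p = 0.00341), and Tbpl1, a TBP-like factor of round spermatids, by −0.54 ± 0.11 (adjusted p = 0.00933). The count of lower genes was 9 without WT replicate 3, 8 with spike-in scaling and 6 with quantile normalization, when 20.2%, 22.6% and 21.3% of all genes were lower.

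Genes of nuclear shaping, which build the perinuclear theca and link the nucleus to the manchette, were lower in 18 of 20 tested cases. This was 90%, against 32.6% of all genes. None was higher, and the median was −0.40, beside −0.14 over all genes. Actrt1, an actin-related protein of the perinuclear theca, was lower by −0.92 ± 0.17 (limma, adjusted p = 0.00748). Hook1, a manchette protein, was lower by −0.80 ± 0.17 (adjusted p = 0.00962), and Cylc1, a basic protein of the sperm head, by −0.64 ± 0.14 (adjusted p = 0.0101). Lmnb2, a lamin whose short form is found in spermatids, was lower by −0.50 ± 0.11 (adjusted p = 0.0120). Actrt3 and Kifc1 were not tested. The count of lower genes was 9 without WT replicate 1, 9 with spike-in scaling and 4 with quantile normalization, against 18 here. Of all genes, 20.9%, 22.6% and 21.3% were lower in these 3 fits, so the 4 of 20 with quantile normalization were near the share of all genes.

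**Figure D4:**
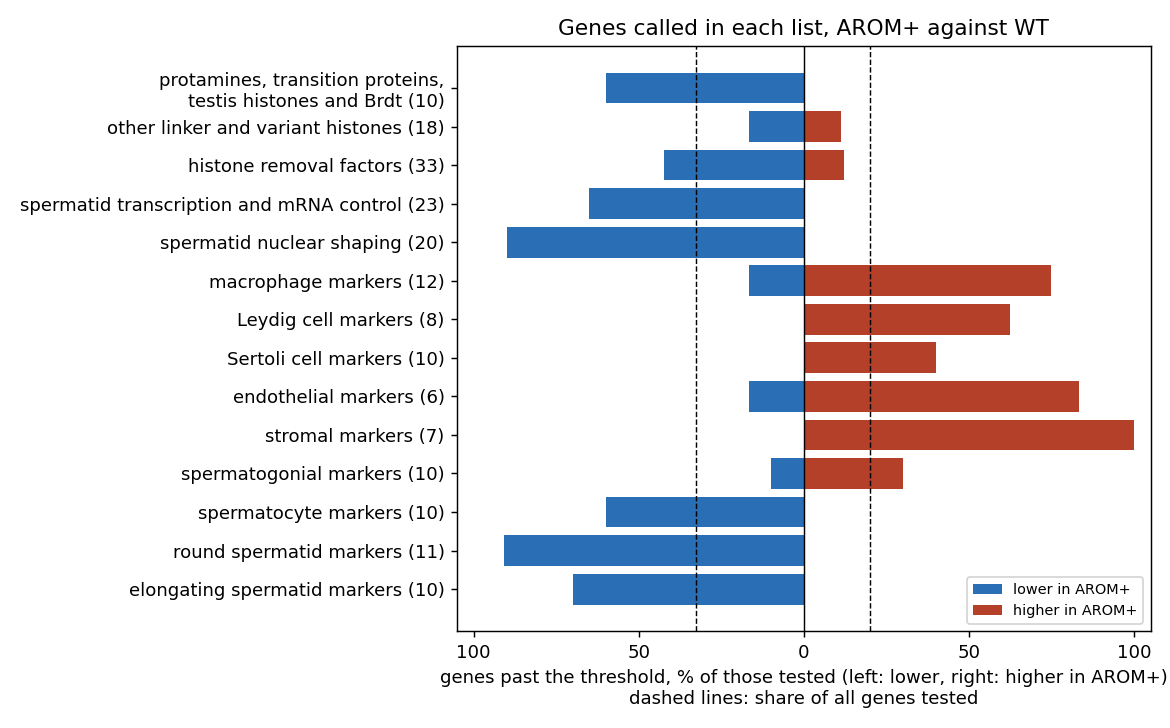
Share of tested genes called lower (bars to the left) or higher (bars to the right) in AROM+ testes, in percent, for the 10 genes, the gene lists and the cell type marker lists. The dashed lines are the shares over all genes, 32.6% lower and 19.9% higher. The bars of spermatid lists reach to the left and those of macrophage and stromal markers to the right.

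Most markers of spermatids were lower in AROM+ testes, like the 10 genes, while several lists of somatic cell markers held more higher than lower genes. Of all genes, 32.6% were called lower and 19.9% higher. Summed levels are the sums of a list's intensities, each divided by the array's 75th percentile. Round spermatid markers were lower in 10 of 11 cases (summed level 89.1 to 90.4 in AROM+ and 116 to 120 in WT). Elongating spermatid markers were lower in 7 of 10 (129 to 138 in AROM+ and 173 to 189 in WT). Spermatocyte markers were lower in 6 of 10 (59.4 to 66.2 in AROM+ and 78.6 to 81.5 in WT). None of these 31 markers was higher, and in all 3 lists the summed levels of AROM+ and WT did not overlap. With quantile normalization 5 round spermatid, 2 elongating spermatid and 3 spermatocyte markers were lower, when 21.3% of all genes were lower. The shares of the elongating spermatid and spermatocyte lists were then near that of all genes. Spermatogonial markers were higher in 3 of 10 and lower in 1 (6.29 to 8.53 in AROM+ and 5.80 to 6.60 in WT, which overlap). Where probes had to be well above background on all 6 arrays, Ret was left out and 2 were higher.

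Among somatic lists, macrophage markers were higher in 9 of 12 and lower in 2, Csf1r and Aif1 (76.7 to 97.8 in AROM+ and 51.2 to 67.6 in WT). With quantile normalization or spike-in scaling 9 macrophage markers were still higher and none was lower. Leydig cell markers were higher in 5 of 8 and lower in none (35.2 to 50.1 in AROM+ and 19.5 to 35.9 in WT). Sertoli cell markers were higher in 4 of 10 and lower in none (66.0 to 73.0 in AROM+ and 49.2 to 59.9 in WT). The summed levels of the 2 groups did not overlap for macrophage and Sertoli cell markers, and overlapped for Leydig cell markers. Stromal markers were higher in 7 of 7 (26.8 to 38.0 in AROM+ and 13.7 to 18.9 in WT). Endothelial markers were higher in 5 of 6 and lower in 1, Kdr (2.17 to 2.94 in AROM+ and 2.15 to 2.42 in WT). The Kdr call was lost with spike-in scaling, and the summed levels of the groups overlapped. Apart from Ret, a spermatogonial marker not well above background on any WT array, every tested marker was well above background on at least 1 array of each group. The part of these cell types in the lower levels of the 10 genes was not tested.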

How the data were processed

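Whole testes of 3 AROM+ and 3 WT mice, grouped by the labels, were measured on one-colour Agilent arrays, 1 testis each. The labels do not state whether testes came from separate litters, and p-values measure the spread between these samples. Spot intensities were deposited as Feature Extraction output (version 10.7.3.1 per the file headers, 10.10 per the submitters' processing notes), and the processed signal is background-corrected per the file headers. A log2 table deposited by the authors equals log2 of the processed signal minus a constant per array (slope 1.00), with column medians of −3.05, −3.09 and −3.02 in AROM+ and −3.12, −3.11 and −3.09 in WT, and genes not centred.

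Processed signals were put on the log2 scale and the 75th percentile of their array was subtracted. Of 62976 spots, 3671 control spots and 123 to 192 outlier spots per array were left out. Spots of a probe were averaged, and probes well above background on all 3 arrays of a group were kept (42627 of 55681). Probes were named through RefSeq (GRCm38.p6, names only): 26161 by accession, 3752 by symbol, 623 by synonym, with 702 listing several genes and 24443 unnamed. RefSeq holds 3 of the genes under newer symbols (H1fnt as H1f7, Hist1h1t as H1f6, Hist1h2ba as H2bc1), and promoters of all 10 were matched. The brightest kept probe stood for a gene. AROM+ was set against WT in limma 3.58.1 under R 4.3.3 (lmFit, eBayes, Benjamini-Hochberg over 18845 genes, threshold 0.05), after the fit was tested on simulated data. Probe gaps used exact permutation tests.

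The 10 genes and the lists were chosen with earlier results of these data known. All 10 genes are named, and up to 4 called genes per pathway list with the largest difference. The rule also named marker genes, which are given as counts, and the 3 protein-coding neighbours on each side of the chromosome 16 cluster. Alternatives were normexp (offset 50), quantile normalization, scaling to bright probes, to spike-ins and to the gene median, the deposited table, no filter and a filter on all 6 arrays, the mean of probes, every probe, file names, a replicate block, trend and robust priors, array weights, and leaving out each array. Leaving out spots not found was added after seeing the data.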

Additional observations from a re-analysis of the deposited data

How the results depend on the processing

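Of the values of single genes among the 10 under the alternatives, 174 kept their direction and side of the threshold, 29 lost the call, 5 gained it and 2 reversed, both with quantile normalization (Prm1 difference 0.062, Hils1 difference 0.015). The number of the 10 called lower was 2 with quantile normalization and 2 with spike-in scaling. It was 3 or 4 without single arrays (4 without WT replicate 1 or AROM+ replicate 3, otherwise 3). None was called higher under any alternative. Their median difference was −0.11 with quantile normalization, −0.45 with centring on the gene median and −0.26 with array weights, and −0.36 to −0.26 without single arrays. Over all genes, 3748 were higher and 6140 lower; 11274 had an unadjusted p under 0.05. The counts were 4098 higher and 4012 lower with quantile normalization, 2464 and 4255 with spike-in scaling, 3152 and 7813 with centring, and 6006 and 12912 with every probe as a feature, where more features were tested. Without single arrays 2609 to 3587 were higher and 3816 to 5445 lower (3816 without WT replicate 3, 3934 without WT replicate 1). The cause of these shifts was not tested. The labels do not say that replicate numbers pair the testes, though the number matched the slide column in both groups. Correlations of deviations were 0.02, −0.24 and 0.00 for the same number and −0.13 to 0.16 for different numbers. With 3 arrays per group they cannot exclude a pairing. With the replicate block 4 of the 10 and 4598 genes were lower and 3132 higher. The calls of Prm3 (limma, adjusted p = 0.0622) and Tnp2 (0.0662) were then lost. Cyp19a1 was called lower in AROM+ with normexp (−0.42, limma, adjusted p = 0.0158) and without WT replicate 2 (−0.48, adjusted p = 0.0364).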
